A study of Rattus norvegicus with 6 samples.

Results

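The matrix metalloproteinases (MMPs), the ADAM and ADAMTS proteases and the tissue inhibitors of metalloproteinases (TIMPs) were compared between Schwann cell precursors (SCPs) and repair Schwann cells (RSCs) of the rat. The 38 genes were chosen by symbol and not by a threshold on their values, though earlier results of these data were known. All 38 were listed among the 29468 gene symbols in the expression tables. They comprised 17 MMPs, 4 TIMPs, 6 ADAMs and 11 ADAMTS genes. SCPs were cells of the sciatic nerves and brachial plexus of LEWIS rat embryos at embryonic day 14, untreated and wild type by the labels, in 3 preparations. RSCs were cells of the distal sciatic nerve segment of wild-type LEWIS rats labelled as 10 weeks old, taken 1 week after the nerve had been cut, also in 3 preparations. Both cell types were freed with collagenase and trypsin, RSCs with more collagenase and for longer, and both were plated briefly in uncoated flasks, a step meant to remove adhesive cells such as macrophages and fibroblasts. The labels do not say how many animals went into a preparation, so the p-values below measure the spread between preparations. Stage, injury, nerve and dissociation differed together between the groups and cannot be told apart.

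MMPs and their relatives are zinc proteases that cut proteins of the extracellular matrix and of the cell surface. Most are made as inactive precursors, and TIMPs block the active site of the mature enzymes. ADAMs are anchored in the membrane and shed ligands and receptors from the cell surface, and ADAMTS proteases are secreted and cut proteoglycans or trim procollagens. In injured peripheral nerve these proteases are known for opening the blood-nerve barrier, clearing myelin and matrix, and removing chondroitin sulfate proteoglycans that slow axon growth.

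Levels are FPKM, a fragment count corrected for transcript length and library size, and so may be compared between genes. Cufflinks, the program behind the tables, gave part of the signal at many of these genes to transcripts that it assembled from that sample's reads and left without a gene name. Such transcripts held 26.1% to 31.9% of all FPKM in SCPs and 18.6% to 23.4% in RSCs. At 24 of the 38 genes a sample had such a transcript, and at 15 it made up more than 50% of the gene's signal in at least 1 sample. Values are therefore given as listed under the gene's name and, for the genes where they change the picture, also with the assembled transcripts of the same locus added. Adding them lowered the number of values listed at 0 from 38 to 21 of 228, and the median coefficient of variation within a group fell from 25.4% to 16.0%. An exact 0 under a gene's name may be a failed estimate, so such genes are described by their value in each sample.

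The cells labelled SCP and RSC both carried Schwann lineage RNA, and markers of other cell types differed between the groups. Sox10, the transcription factor of the lineage, was at 179, 175 and 181 FPKM in SCPs and 149, 143 and 143 FPKM in RSCs. The summed level of 9 macrophage markers was 16.5 to 47.5 FPKM in SCPs and 1179 to 1600 FPKM in RSCs, and all 9 were over 4-fold higher in RSCs. The sum of 8 fibroblast markers was 643 to 1022 FPKM in SCPs and 5380 to 8029 FPKM in RSCs, and 7 of the 8 were higher in RSCs, all but Pdgfra. The sum of 8 neutrophil markers was 2.45 to 4.93 FPKM in SCPs and 16.1 to 20.9 FPKM in RSCs, mostly Lcn2. Only 3 of the 8 were tested, and 2 of them, Lcn2 and Csf3r, were called as higher in RSCs. S100a8, Elane and Cxcr2 were at 0 in every SCP sample and Mpo was at 0 in every RSC sample. In the other direction, the sum of 5 cartilage and limb mesenchyme markers was 98.6 to 134 FPKM in SCPs and 7.51 to 15.9 FPKM in RSCs, mostly Col2a1 in SCPs. Of these 5, 3 were tested and 2 were called, Col2a1 and Twist1. The sum of 5 skeletal muscle markers was 38.6 to 70.04 FPKM in SCPs against 2.28 to 5.69 FPKM in RSCs, with 4 of the 5 called. That of 5 erythroid markers was 16680 to 74638 against 0 to 1.48 FPKM. The part of these cells in the results below was not tested. In RNA from a mixed cell suspension, fewer cells of a type and less RNA per cell cannot be told apart.

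Of the 38 genes, 32 reached a mean of 1 FPKM over the 6 samples and were tested with limma on log2(FPKM + 1). At an unadjusted p under 0.01, the RSCs had the higher level of 13 genes and the SCPs of 3, and 16 were not called. Over all 13003 genes tested, 40.5% were called, 18.1% as higher in RSCs and 22.4% as higher in SCPs. With a log2 fold change over 2 as a second criterion, 9 genes remained, 7 in favour of RSCs and 2 in favour of SCPs, against a background of 11.6% of all genes, or 7.81% and 3.78% by direction. The values of the groups did not overlap for 13 genes that lay above in RSCs and 4 that lay above in SCPs, against 58.6% of all tested genes, 24.9% and 33.7% by direction. The median log2 fold change was 0.22 over the 32 genes and −0.17 over all genes. Median-of-ratios scaling moved the median of all genes to 0.02. Of the 32 genes, 4 reached the mean of 1 FPKM only through RSCs (Mmp9, Mmp12, Adamts2 and Adamts8) and 2 only through SCPs (Adamts3 and Adamts6), so those 6 had to differ in that direction and their tests add nothing to it.

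With assembled transcripts added, 34 of the 38 genes were tested, and 16 favoured RSCs and 6 favoured SCPs. The background was then 57.3% of 14020 genes, 23.2% higher in RSCs and 34.1% higher in SCPs. All 16 calls made from named transcripts were made again in the same direction, and 6 genes were called only with the assembled transcripts, namely Mmp8, Adam9, Adam12, Adam33, Adamts3 and Adamts6. Of these, Mmp8 and Adam33 reached the test only through RSCs and Adamts3 and Adamts6 only through SCPs. Over 4-fold there were 13 genes, 9 in favour of RSCs and 4 in favour of SCPs, against 13.1% of all genes, or 8.57% and 4.58% by direction. The groups did not overlap for 17 genes above in RSCs and 6 above in SCPs, against 72.4% of all tested genes, 28.8% and 43.6% by direction.

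**Figure D1:**
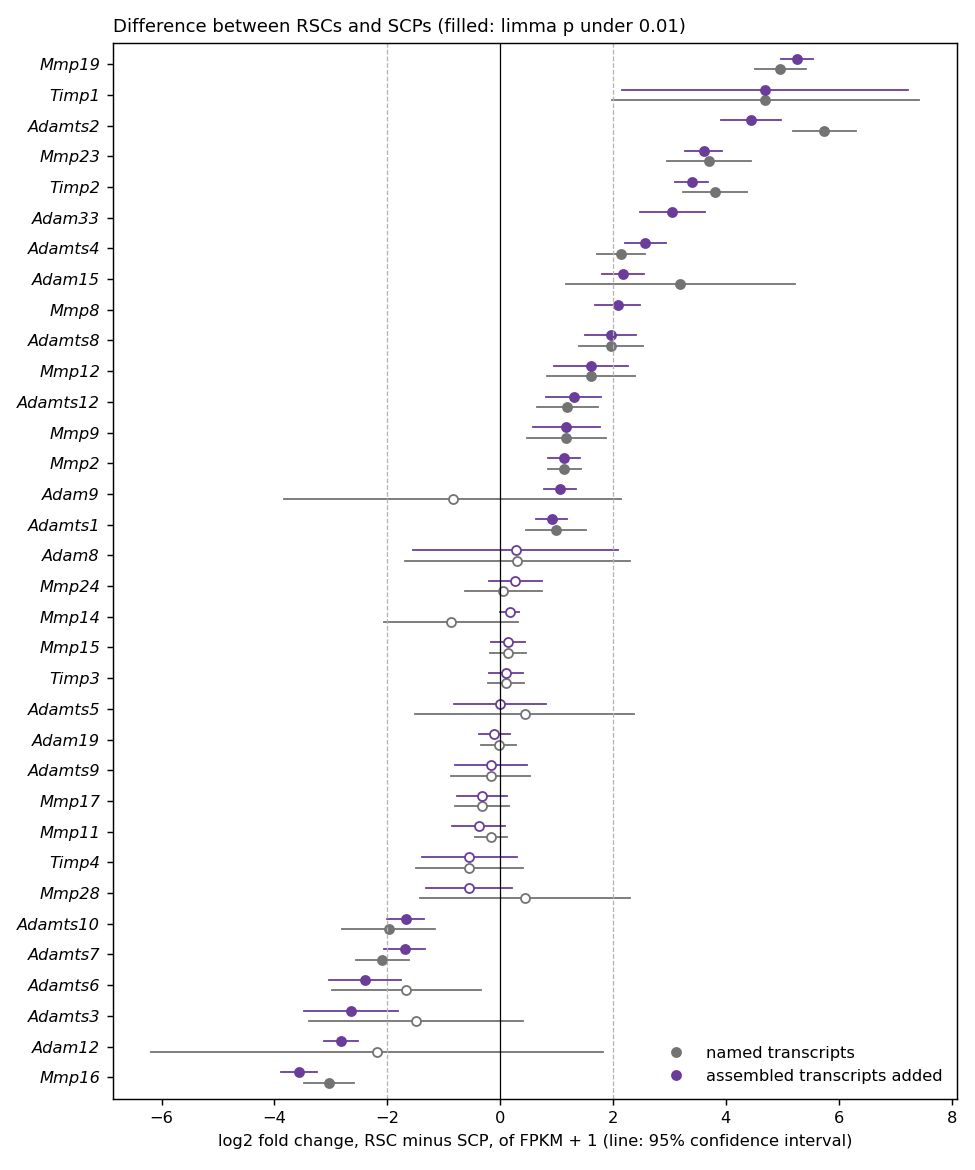
The horizontal axis is the log2 fold change of FPKM + 1, RSC minus SCP, with its 95% confidence interval, for each gene that was tested in at least 1 counting. Grey points use named transcripts and purple points add assembled transcripts, filled points have a limma p under 0.01, and dashed lines mark a 4-fold difference. Mmp19, Timp1, Adamts2, Mmp23 and Timp2 lie farthest to the right, Mmp16 lies farthest to the left, and the intervals of Adam9 and Adam12 are much narrower with assembled transcripts added.

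The TIMPs are described first, since Timp1, Timp2 and Timp3 were among the most abundant of all 38 genes in RSCs. Timp2, which inhibits MMPs and also takes part in the activation of pro-MMP2 by Mmp14, was at 12.6, 13.4 and 18.7 FPKM in SCPs and 164, 240 and 265 FPKM in RSCs. The lowest RSC sample was well above the highest SCP sample. Cufflinks marked the named transcript of Timp2 as having too little data in every sample. The ratio of the means was 15.0, the log2 fold change was 3.81 (SE 0.23) and limma's adjusted p was 9.9e-05. Between 57.4% and 75.0% of the signal at Timp2 (chr10:107338465-107386072 on rn6) was in assembled transcripts, and with them Timp2 was at 49.7, 53.6 and 66.9 FPKM in SCPs and 559, 630 and 622 FPKM in RSCs. That made it the most abundant of the 38 genes in every RSC sample.

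Timp1, an inhibitor that many cell types induce after injury, was listed at 0, 15.5 and 14.7 FPKM in SCPs and at 152, 188 and 155 FPKM in RSCs. The groups did not overlap, and the log2 fold change was 4.70 (SE 1.11, limma p 0.0056, adjusted p 0.016). The 0 belonged to SCP replicate 1, where an assembled transcript of 3.47 FPKM spanned Timp1 and the next gene (chrX:1364771-1391615 on rn6), and SCP replicate 2 had a similar one of 5.30 FPKM. Neither was counted for Timp1. Without SCP replicate 1 the log2 fold change was 3.36, and the p was 0.019 to 0.021, above the threshold, when any RSC sample was left out.

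Timp3 and Timp4 were not called. Timp3, which binds to the matrix and also inhibits ADAMs and ADAMTS proteases, was at 129, 134 and 163 FPKM in SCPs and 174, 140 and 145 FPKM in RSCs. It was the most abundant of the 38 genes in SCPs, the groups overlapped, and the 95% interval of its log2 fold change ran from −0.21 to 0.43. Timp4 was low, at 1.37, 2.89 and 4.59 FPKM in SCPs and 2.08, 1.77 and 0.94 FPKM in RSCs.

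The gelatinases Mmp2 and Mmp9 cut denatured collagen and basement membrane collagen. Mmp2 was at 75.2, 74.6 and 75.1 FPKM in SCPs and 145, 197 and 160 FPKM in RSCs. It was expressed in every sample and its level in RSCs was 2.23 times that in SCPs (log2 fold change 1.14, SE 0.12, limma adjusted p 7.6e-04). Mmp9, typical of leukocytes, was much lower, at 0.68, 0.23 and 0.91 FPKM in SCPs and 3.45, 1.98 and 2.39 FPKM in RSCs. The groups did not overlap (log2 fold change 1.17, SE 0.29, limma p 0.0066, adjusted p 0.018), but the call was lost whenever a sample other than SCP replicate 3 was left out (p 0.010 to 0.022). Mmp9 reached the test only through RSCs, so its direction was fixed by the filter. In RSCs Mmp2 was thus far more abundant than Mmp9, in all 3 preparations.

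The largest differences among the MMPs were those of Mmp19, Mmp23 and Mmp16. Mmp19, a secreted protease of basement membrane proteins, was at 1.29, 1.86 and 1.36 FPKM in SCPs and 78.7, 91.8 and 63.0 FPKM in RSCs. The ratio of the means was 51.7 and the log2 fold change 4.97 (SE 0.18, limma adjusted p 2.6e-05). The gene lies at chr7:3216392-3224202 on rn6. Mmp23, an MMP held in the membrane until it is cleaved free, was at 4.45, 6.61 and 2.68 FPKM in SCPs and 53.5, 78.5 and 77.2 FPKM in RSCs. Its ratio was 15.2 and its log2 fold change 3.71 (SE 0.30, limma adjusted p 2.9e-04). With assembled transcripts added, the 3 RSC samples came closer together for both genes, at 98.3, 91.8 and 92.6 FPKM for Mmp19 and 73.9, 78.5 and 77.2 FPKM for Mmp23.

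Mmp16, a membrane-type MMP also called MT3-MMP, went the other way. It was at 16.8, 15.5 and 19.2 FPKM in SCPs and 1.02, 1.49 and 1.15 FPKM in RSCs, a ratio of 14.1 in favour of SCPs. Cufflinks marked the main named transcript of Mmp16 as having too little data in every sample. The log2 fold change was −3.03 (SE 0.18, limma adjusted p 8.6e-05), and −3.56 with assembled transcripts, which were found at this gene (chr5:31568351-31813890 on rn6) in SCPs only. Among the 17 MMPs it was the only one called as higher in SCPs, in both countings.

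Apart from Mmp23, the other membrane-anchored MMPs were not called. Mmp14, or MT1-MMP, the activator of pro-MMP2, was listed at 45.6, 77.7 and 23.4 FPKM in SCPs and 15.2, 31.3 and 27.0 FPKM in RSCs (log2 fold change −0.87, SE 0.48, limma p 0.12). Cufflinks marked its named transcript as having too little data in 5 of the 6 samples, and between 19.6% and 86.0% of the signal was in assembled transcripts. With these added, Mmp14 was at 104, 96.6 and 94.5 FPKM in SCPs and 109, 113 and 111 FPKM in RSCs, a log2 fold change of 0.17 (SE 0.07, limma p 0.047). The direction of the difference thus turned with the counting, and the ratio of the means went from 0.50 to 1.12. Mmp15 was at 61.6 to 80.4 FPKM in SCPs and 72.6 to 87.1 FPKM in RSCs, with overlapping groups. Mmp17, a lipid-anchored MMP, was at 15.4 to 26.0 FPKM in SCPs and at 16.2 to 16.3 FPKM in RSCs, and Mmp24 was at or below 2.33 FPKM in every sample.

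Mmp11 and Mmp28, which are cut to their active form inside the cell by furin-like proteases, were not called either. Mmp11 was at 15.1, 14.0 and 13.1 FPKM in SCPs and 12.2, 13.2 and 12.0 FPKM in RSCs, and assembled transcripts raised SCP replicate 2 to 22.6 FPKM. Mmp28 was at 3.26, 0 and 6.57 FPKM in SCPs and 4.68, 3.22 and 2.34 FPKM in RSCs, and its log2 fold change of 0.44 became −0.55 with assembled transcripts.

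The remaining 6 MMPs, namely Mmp13, Mmp12, Mmp3, Mmp10, Mmp8 and Mmp7, are neighbours within 378 kb of chromosome 8 (chr8:5522739-5900965 on rn6), and none was above 3.82 FPKM in any sample. Mmp12, the elastase of macrophages, was listed at 0 in the 3 SCP samples and at 3.01, 1.08 and 2.41 FPKM in RSCs (limma adjusted p 0.0077), and reached the test only through RSCs. Without RSC replicate 1 or RSC replicate 3 it fell below the level needed for the test. Mmp7, or matrilysin, was at 0 in SCPs and at 1.26, 0.92 and 0.98 FPKM in RSCs, below the level needed for the test. Mmp8, the collagenase of neutrophils, was at 0 in SCPs and listed at 0, 0 and 3.82 FPKM in RSCs, values that assembled transcripts changed to 2.93, 3.01 and 3.82 FPKM. It was then called (limma adjusted p 7.4e-05), again only through RSCs. Mmp13, or collagenase 3, was at 0, 0.07 and 0.08 FPKM in SCPs and 0.35, 0.32 and 0.42 FPKM in RSCs. The stromelysin Mmp3 was above 0 in SCP replicate 2, at 0.12 FPKM, and RSC replicate 1, at 0.47 FPKM, and Mmp10 was above 0 only in RSC replicate 3, at 0.13 FPKM. In the same RSC samples all 9 macrophage markers were higher. Of the 8 neutrophil markers 3 were tested, and Lcn2 and Csf3r were called as higher. The part of either cell type was not tested.

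**Figure D2:**
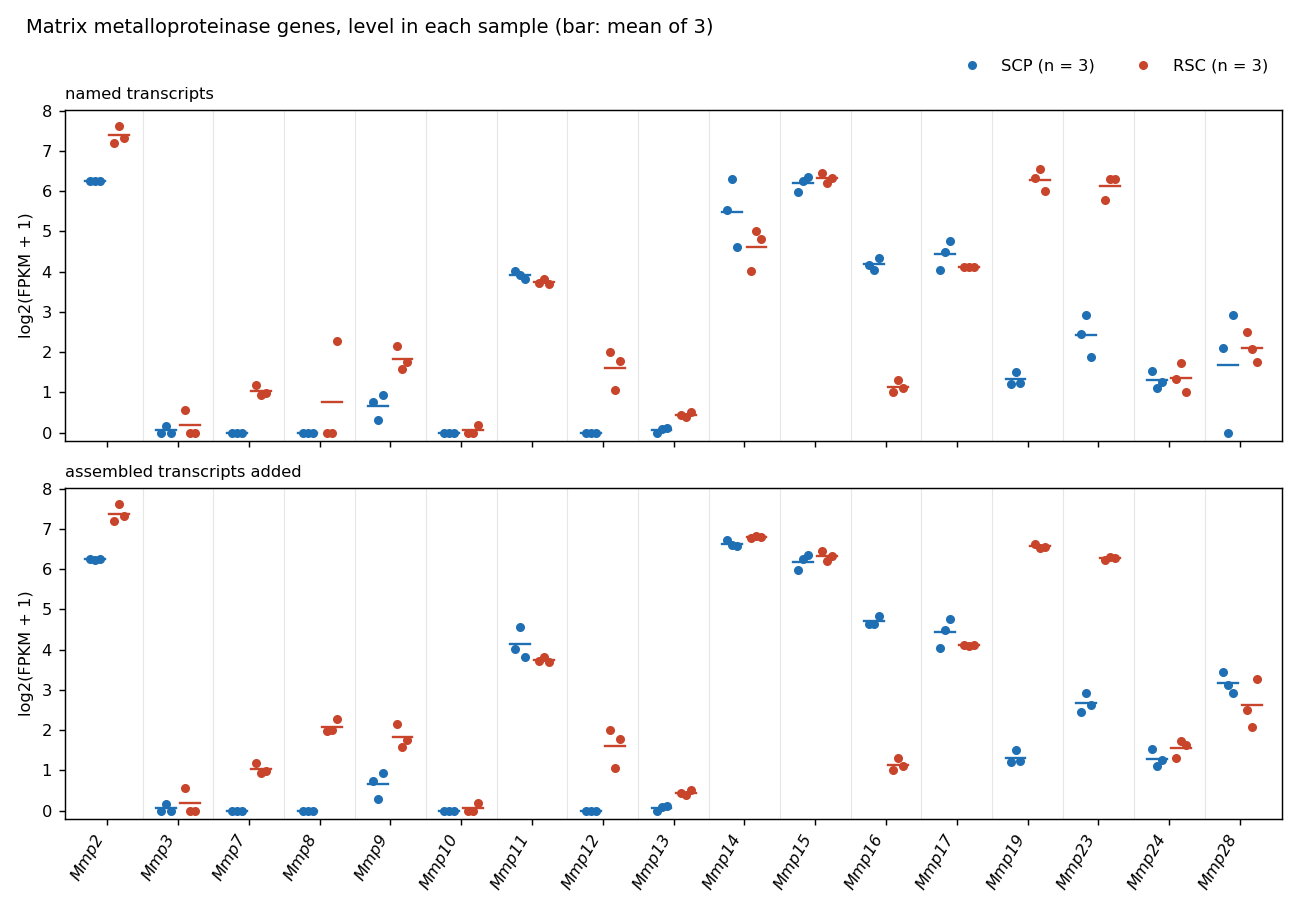
The vertical axis is log2(FPKM + 1) for each of the 17 MMPs, with a point for each sample and a bar at the mean of the 3 samples of a group, from named transcripts above and with assembled transcripts added below. Mmp2, Mmp14 and Mmp15 are high in both groups, Mmp19 and Mmp23 are high in RSCs and low in SCPs, Mmp16 is high in SCPs, and the chromosome 8 genes lie near 0 apart from the RSC points of Mmp7, Mmp8 and Mmp12.

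Sequence upstream of the start is shown for this gene cluster, because its 6 members share a place, low levels and promoter letters, and for Adamts2, which had the largest fold change of the 38 genes from named transcripts, with its paralog Adamts3. The cluster was chosen for display after its values and promoter letters were seen. Its motif shares given below were thus part of the choice and test nothing. Promoter sequences came from RefSeq on the GRCr8 assembly, which is not the build of the expression tables, and 28 of the 38 genes matched an entry. Both strands of the 250 bases before the start were searched for the AP-1 motif TGANTCA, bound by Fos and Jun proteins, the TATA motif TATAAA and the ETS motif AGGAAG, and no match of a motif overlapped a match of another. AP-1 letters were found at 6 of the 28 genes and in 6.34% of 33469 promoters, TATA letters at 9 genes and in 12.9%, and ETS letters at 9 genes and in 29.5%. The last 120 bases before the start are printed 5′ to 3′ on the strand of the gene, in lower case with AP-1 and TATA matches of either strand in capitals, for Mmp13 (chr8:12782709-12782828), Mmp12 (chr8:12866532-12866651), Mmp3 (chr8:12925161-12925280), Mmp10 (chr8:12974587-12974706), Mmp8 (chr8:13008770-13008889), Mmp7 (chr8:13132923-13133042), Adamts2 (chr10:35421910-35422029) and Adamts3 (chr14:18515129-18515248), all on the plus strand.
Mmp13: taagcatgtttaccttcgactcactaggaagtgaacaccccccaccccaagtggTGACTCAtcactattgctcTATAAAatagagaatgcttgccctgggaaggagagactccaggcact
Mmp12: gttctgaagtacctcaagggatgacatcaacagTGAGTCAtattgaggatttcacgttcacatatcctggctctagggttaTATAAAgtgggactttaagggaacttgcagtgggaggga
Mmp3: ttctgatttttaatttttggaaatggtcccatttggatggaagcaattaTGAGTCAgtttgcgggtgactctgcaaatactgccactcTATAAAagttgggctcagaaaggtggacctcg
Mmp10: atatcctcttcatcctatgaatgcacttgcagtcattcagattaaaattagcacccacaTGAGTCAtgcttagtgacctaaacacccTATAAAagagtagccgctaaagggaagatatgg
Mmp8: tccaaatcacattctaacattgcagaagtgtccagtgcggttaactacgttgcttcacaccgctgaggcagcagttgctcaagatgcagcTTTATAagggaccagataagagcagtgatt
Mmp7: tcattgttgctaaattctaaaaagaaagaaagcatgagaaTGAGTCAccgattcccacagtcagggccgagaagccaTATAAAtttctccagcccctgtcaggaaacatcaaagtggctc
Adamts2: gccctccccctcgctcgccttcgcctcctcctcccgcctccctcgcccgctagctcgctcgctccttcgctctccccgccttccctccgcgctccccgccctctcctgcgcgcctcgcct
Adamts3: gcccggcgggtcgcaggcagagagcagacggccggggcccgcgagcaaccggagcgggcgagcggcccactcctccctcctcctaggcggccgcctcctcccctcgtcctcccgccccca

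All 6 genes of the cluster had TATA letters within 50 bases of the start, as did 3.17% of all promoters and 7 of the 28 matched genes. Mmp13, Mmp12, Mmp3, Mmp10 and Mmp7 also had AP-1 letters within 250 bases. AP-1 and TATA letters both within 250 bases were found in 1.02% of all promoters and at none of the other matched genes. The only other gene of the 28 with AP-1 letters was Adam19. The promoters of the cluster were 36.0% to 48.0% G and C, below the 51.2% that was the median of all promoters, while those of Adamts2 and Adamts3 were 75.6% and 77.6% G and C and held none of the motifs. A match of letters is a description of the sequence and says nothing of binding in these cells.

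The ADAMTS genes differed in both directions. Among the 11, RSCs had the higher level of 5 and SCPs of 2, against 18.1% and 22.4% of all genes, and with assembled transcripts of 5 and 4, against 23.2% and 34.1%. From named transcripts Adamts2 and Adamts8, both counted for RSCs, reached the test only through RSCs. With assembled transcripts Adamts8 again did so, and Adamts3 and Adamts6, both counted for SCPs, reached it only through SCPs. Adamts2, which removes the N-propeptide of fibrillar procollagens, was listed at 0.55, 0 and 0 FPKM in SCPs and 54.8, 67.9 and 61.1 FPKM in RSCs. Its log2 fold change of 5.74 (SE 0.23, limma adjusted p 3.0e-05) was the largest of the 38 genes from named transcripts. Cufflinks marked its main named transcript as having too little data in every sample. From named transcripts Adamts2 reached the test only through RSCs, so its direction was fixed by the filter. With assembled transcripts at the locus (chr10:36098051-36304416 on rn6), it was at 2.23, 4.47 and 2.74 FPKM in SCPs and 73.5, 100 and 88.5 FPKM in RSCs, and the log2 fold change was 4.44, below those of Mmp19 (5.25) and Timp1 (4.70) in that counting.

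Adamts3, the paralog of Adamts2, was listed at 0, 7.31 and 3.23 FPKM in SCPs and 0.22, 0.12 and 0.15 FPKM in RSCs, and was not called (log2 fold change −1.49, SE 0.77, limma p 0.10). The 0 in SCP replicate 1 became 9.86 FPKM with an assembled transcript, the groups no longer overlapped, and the log2 fold change was −2.64 (SE 0.35). Adamts3 reached the test only through SCPs, so its direction was fixed by the filter. Collagen genes of the fibroblast list moved with Adamts2, Col1a1 being at 79.99, 194 and 226 FPKM in SCPs and 1614, 2076 and 1628 FPKM in RSCs.

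Of the ADAMTS proteases among the 38 genes that cut proteoglycans such as versican and aggrecan, Adamts1, Adamts4 and Adamts8 were higher in RSCs. Adamts4, or aggrecanase 1, was at 9.23, 7.25 and 10.98 FPKM in SCPs and 42.3, 39.2 and 48.4 FPKM in RSCs, a ratio of 4.73 (log2 fold change 2.14, SE 0.17, limma adjusted p 2.8e-04), and assembled transcripts raised the RSC values to 61.1, 54.9 and 60.7 FPKM. Adamts1 was at 26.3, 19.6 and 32.2 FPKM in SCPs and 48.7, 63.2 and 44.6 FPKM in RSCs, a ratio of 2.004 (limma p 0.0041, adjusted p 0.012), a call that was lost without SCP replicate 1, RSC replicate 1 or RSC replicate 2 (p 0.013 to 0.015). Adamts8 was at 0.09, 0.17 and 0.34 FPKM in SCPs and 2.94, 4.26 and 3.87 FPKM in RSCs, and its log2 fold change of 1.96 (limma adjusted p 0.0011) is held down by the 1 FPKM added before the logarithm. Adamts8 reached the test only through RSCs, so its direction was fixed by the filter. The related Adamts5 and Adamts9 were not called. Adamts5, or aggrecanase 2, was listed at 5.13, 6.90 and 0 FPKM in SCPs and 3.96, 4.16 and 3.67 FPKM in RSCs, and with assembled transcripts its log2 fold change was −0.01. Adamts9 was at 6.89 to 14.5 FPKM in SCPs and 9.15 to 10.5 FPKM in RSCs. Outside the 38 genes, the related Adamts15 was higher in SCPs, at 12.3, 13.9 and 15.1 FPKM against 5.10, 3.83 and 1.82 FPKM in RSCs. Its log2 fold change was −1.76 (limma adjusted p 0.0052), and −1.14 with assembled transcripts. Adamts20, also outside the 38, was listed at 0 in SCPs and 1.06, 0.36 and 0.78 FPKM in RSCs, too low for the test. With assembled transcripts it was at 2.40, 3.10 and 6.98 FPKM in SCPs and 1.06, 1.19 and 0.78 FPKM in RSCs. It was then called as higher in SCPs (log2 fold change −1.26, limma p 0.0074), so its direction turned with the counting.

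Adamts7 and Adamts10 were higher in SCPs. Adamts7, which cuts cartilage oligomeric matrix protein, was at 27.7, 28.9 and 27.3 FPKM in SCPs and 7.22, 6.30 and 4.24 FPKM in RSCs, a ratio of 4.72 in favour of SCPs (log2 fold change −2.09, SE 0.19, limma adjusted p 4.3e-04). With assembled transcripts, which held up to 49.3% of its signal in an RSC sample, Adamts7 was at 9.56, 6.30 and 8.37 FPKM in RSCs, and the log2 fold change of −1.69 was no longer over 4-fold. Adamts10, which is tied to fibrillin microfibrils, was at 43.0, 28.5 and 18.4 FPKM in SCPs and 6.48, 8.31 and 4.96 FPKM in RSCs (log2 fold change −1.97, SE 0.34, limma adjusted p 0.0046), and with assembled transcripts at 55.9, 55.4 and 41.5 FPKM in SCPs and 15.8, 14.2 and 15.4 FPKM in RSCs (log2 fold change −1.67). Adamts6, the closest relative of Adamts10, was at 1.98, 8.51 and 1.52 FPKM in SCPs and 0.21, 0.37 and 0.36 FPKM in RSCs. The groups of Adamts6 did not overlap but the limma p was 0.022, and with assembled transcripts its log2 fold change was −2.39. Adamts6 too reached the test only through SCPs. Adamts12, the closest relative of Adamts7, went the other way, at 2.28, 2.98 and 4.19 FPKM in SCPs and 7.97, 7.97 and 9.002 FPKM in RSCs (log2 fold change 1.19, limma adjusted p 0.0063 and a log2 fold change of 1.31 with assembled transcripts). Of the 5 cartilage and limb mesenchyme markers 3 were tested, and 2, Col2a1 and Twist1, were called as higher in the SCP samples.

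The ADAMs were the family most affected by the counting. Adam12, a protease of mesenchyme and muscle precursors, was listed at 48.3, 0 and 15.3 FPKM in SCPs and 7.58, 0 and 0 FPKM in RSCs and was not called (limma p 0.23). With assembled transcripts at the locus (chr1:205951840-206150605 on rn6), it was at 71.5, 70.3 and 67.6 FPKM in SCPs and 7.58, 10.7 and 9.03 FPKM in RSCs. The 3 samples of each group then lay close together, 7.67 times higher in SCPs (log2 fold change −2.82, SE 0.13, limma adjusted p 8.0e-06). In SCPs 4 of the 5 skeletal muscle markers were also called as higher, all but Tnnt3.

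Adam9 was listed at 10.98, 0 and 3.02 FPKM in SCPs and 0, 7.33 and 0 FPKM in RSCs. With assembled transcripts it was at 10.98, 11.3 and 13.5 FPKM in SCPs and 25.3, 28.5 and 24.0 FPKM in RSCs, and the log2 fold change went from −0.84 (limma p 0.51) to 1.06 (SE 0.12, limma adjusted p 3.4e-04). Adam33 was listed at 0.12, 0.43 and 0.55 FPKM in SCPs and 0, 0 and 2.63 FPKM in RSCs and was too low to be tested. With assembled transcripts it was at 8.64, 8.71 and 14.0 FPKM in RSCs, with no change in SCPs, and the log2 fold change was 3.05 (SE 0.24), in a direction fixed by the filter, since it reached the test only through RSCs.

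Adam15 was the only ADAM called from named transcripts. It was listed at 0, 5.75 and 7.55 FPKM in SCPs and 28.1, 39.8 and 36.1 FPKM in RSCs (log2 fold change 3.19, SE 0.82, limma p 0.0085, adjusted p 0.022), a call that was lost without SCP replicate 2 or any RSC sample (p 0.012 to 0.030). With assembled transcripts SCP replicate 1 was at 5.77 FPKM and the log2 fold change was 2.18 (SE 0.16). Adam19, a protease of neuregulin precursors, was at 47.6, 49.6 and 43.0 FPKM in SCPs and 40.8, 53.5 and 43.7 FPKM in RSCs, with overlapping groups. Adam8, found on leukocytes, was at 6.18 FPKM in SCP replicate 2 and listed at 0 in the other SCP samples, against 1.68, 1.38 and 1.12 FPKM in RSCs, and was not called in either counting.

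**Figure D3:**
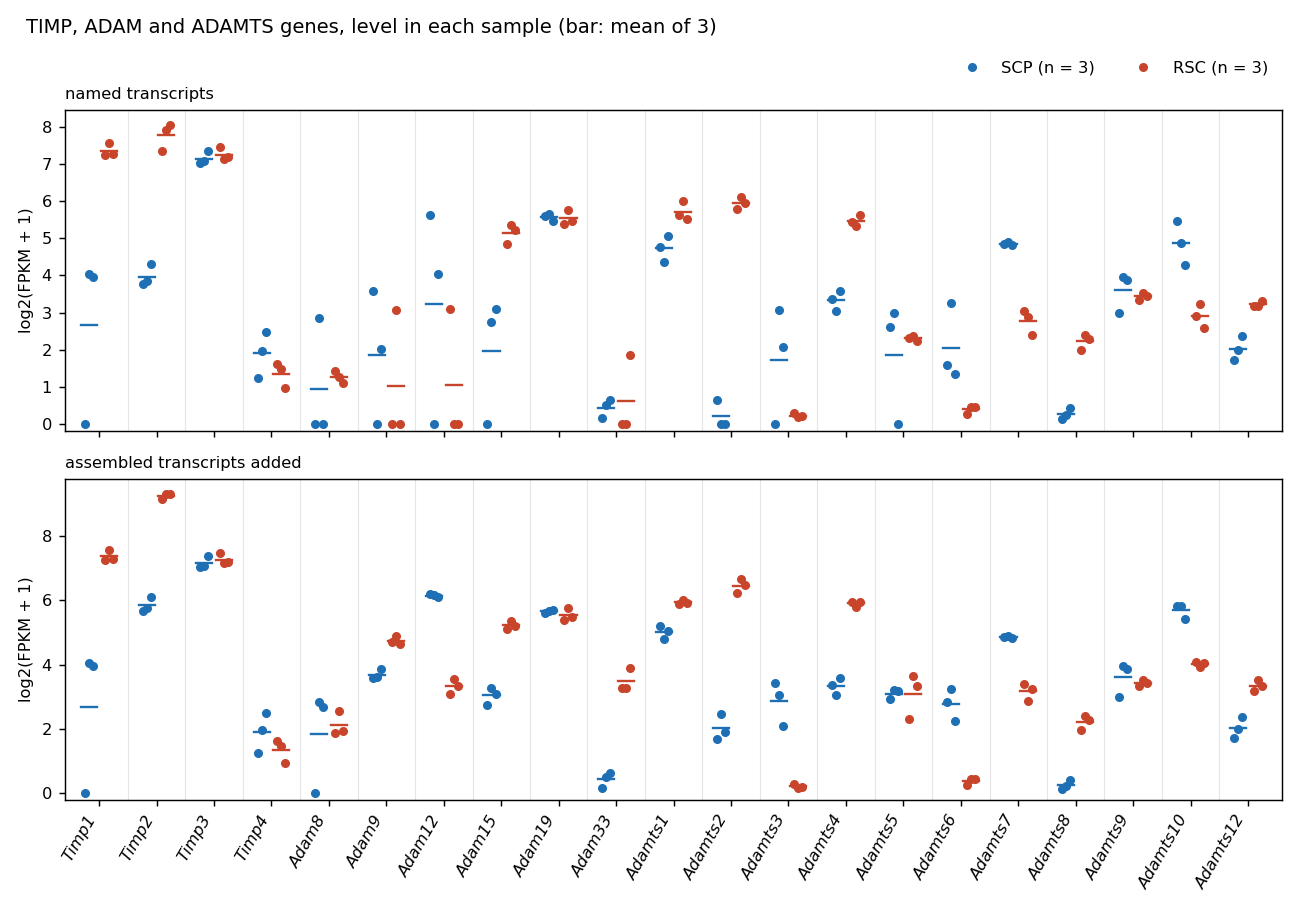
The vertical axis is log2(FPKM + 1) for the TIMPs, ADAMs and ADAMTS genes, with a point for each sample and a bar at the mean of the 3 samples of a group, from named transcripts above and with assembled transcripts added below. Timp1, Timp2, Adamts2 and Adamts4 separate upwards in RSCs, Adamts7 and Adamts10 separate upwards in SCPs, and the scattered points of Adam9 and Adam12 draw together in the lower panel.

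Summed over genes, the families took different shares in the cell types. The 17 MMPs together were at 241, 289 and 250 FPKM in SCPs and 424, 512 and 450 FPKM in RSCs. The 4 TIMPs together were at 143, 166 and 201 FPKM in SCPs and 492, 570 and 566 FPKM in RSCs. TIMPs made up 23.3%, 25.9% and 31.8% of the summed level of the 38 genes in SCPs and 41.8%, 40.8% and 43.9% in RSCs. The ratio of summed TIMPs to summed MMPs was below 1 in every SCP sample (0.59, 0.57 and 0.80) and above 1 in every RSC sample (1.16, 1.11 and 1.26). With assembled transcripts this ratio was 0.57, 0.62 and 0.75 in SCPs and 1.58, 1.61 and 1.62 in RSCs. The sums are dominated by a few genes, Timp3, Mmp2 and Mmp15 in SCPs and Timp2, Mmp2 and Timp1 in RSCs, and measure RNA, not protein or activity.

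The order of levels also differed. In SCPs, from named transcripts, the most abundant of the 38 genes were Timp3, Mmp2, Mmp15, Mmp14 and Adam19. Timp3 lay above all others, and from Mmp2 downwards the values of each gene overlapped those of the next. In RSCs the order was Timp2, Mmp2, Timp1, Timp3, Mmp15, Mmp19, Mmp23 and Adamts2. The values of each gene again overlapped those of the next, except that Timp3 and the genes above it lay apart from Mmp15 and the genes below it. With assembled transcripts the order in SCPs was Timp3, Mmp14, Mmp2, Mmp15 and Adam12, and in RSCs Timp2, Mmp2, Timp1, Timp3, Mmp14, Mmp19 and Adamts2. The ADAM sum was at 107, 62.0 and 69.5 FPKM in SCPs and 78.2, 102 and 83.5 FPKM in RSCs, with overlap, and the ADAMTS sum at 123, 125 and 112 FPKM in SCPs and 184, 212 and 190 FPKM in RSCs.

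**Figure D4:**
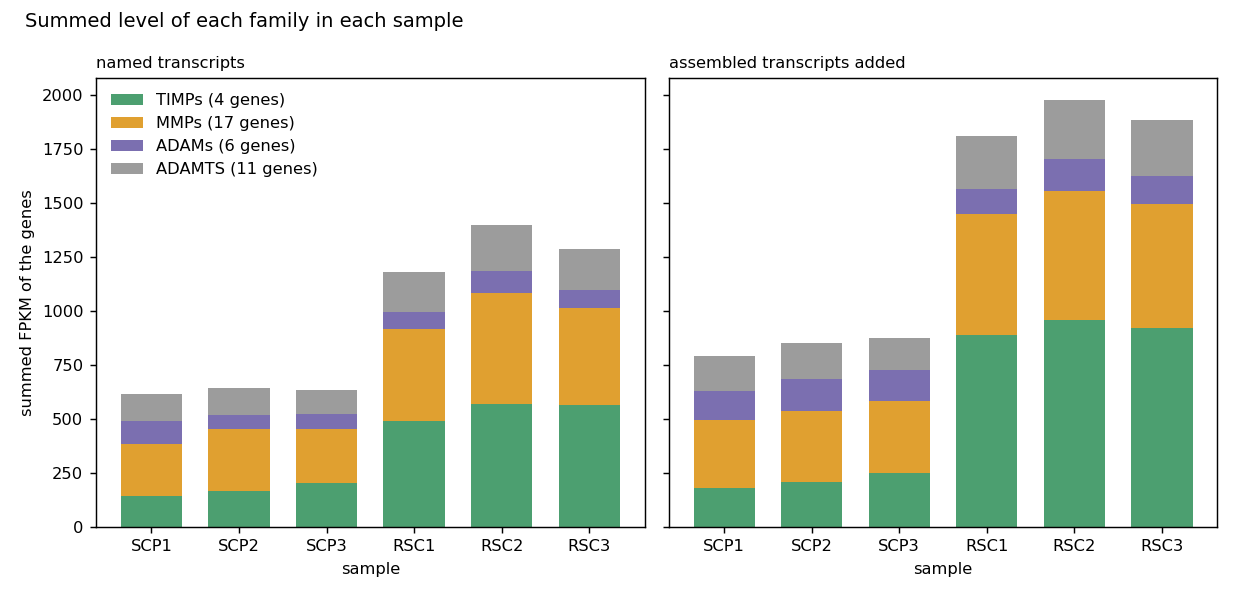
Each bar is a sample, its height is the summed FPKM of the 38 genes from a start at 0, and its colours are the 4 families, from named transcripts on the left and with assembled transcripts added on the right. The bars reach 614 to 641 FPKM in SCPs and 1178 to 1396 FPKM in RSCs on the left, and the TIMP part is the larger in RSCs.

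Genes that act with these proteases were read from a list of other metalloproteases, activators, inhibitors, clearance receptors and substrates. Of 49 such genes in the tables, 28 were tested, of which 11 favoured RSCs and 6 favoured SCPs, 8 and 4 of them over 4-fold, against the 18.1% and 22.4% of all genes called in these directions and 7.81% and 3.78% over 4-fold. With assembled transcripts 33 were tested, 16 favouring RSCs and 8 favouring SCPs, against 23.2% and 34.1% of all genes. Called over 4-fold only in that counting were Adamtsl5 (log2 fold change 3.99), Adamtsl4 (2.57) and Comp (2.14), higher in RSCs, and Adam11 (−2.05), higher in SCPs. Adamtsl5, Adamtsl4 and Comp reached that test only through RSCs. From named transcripts A2m, Tfpi2, Adamts14, Adamts16, Adamtsl1, Adamtsl5, Spock2 and Comp reached the test only through RSCs, and Adamts17 and Adamts19 only through SCPs. In that counting the median log2 fold change of the 28 tested genes was 0.42. Among the inhibitors, A2m, the plasma protease inhibitor alpha-2-macroglobulin, was at 0.20, 0.44 and 0.29 FPKM in SCPs and 215, 249 and 222 FPKM in RSCs (log2 fold change 7.46, SE 0.13, limma adjusted p 4.9e-06). Lrp1, the receptor that takes up A2m and several MMPs, was higher in RSCs by a log2 fold change of 1.14. Tfpi2, a serine protease inhibitor of the matrix, was higher in RSCs by 2.77 on the log2 scale, and by 3.85 with assembled transcripts. Reck, a membrane-anchored inhibitor of MMPs, was higher in SCPs, at 61.0, 66.5 and 68.6 FPKM against 28.8, 35.3 and 30.01 FPKM in RSCs (log2 fold change −1.04, SE 0.11, limma adjusted p 7.2e-04). Together with the TIMPs, the inhibitors thus differed in both directions.

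Among the activators, the 2 plasminogen activators were higher in RSCs. Plau, or urokinase, was at 0.77, 1.63 and 2.65 FPKM in SCPs and 37.1, 36.6 and 37.0 FPKM in RSCs (log2 fold change 3.88, SE 0.28, limma adjusted p 1.8e-04). Plat, or tissue plasminogen activator, was at 78.4, 81.1 and 82.4 FPKM in SCPs and 283, 254 and 257 FPKM in RSCs (log2 fold change 1.70). Bsg, an inducer of MMPs, was higher in RSCs by 0.57 on the log2 scale. Pcolce, which enhances the removal of the procollagen C-propeptide, was at 25.8, 45.6 and 34.2 FPKM in SCPs and 220, 286 and 234 FPKM in RSCs (log2 fold change 2.80).

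Further ADAMTS relatives again differed in both directions. Adamts14, the remaining procollagen N-propeptidase, was at 0.31, 0.65 and 0.66 FPKM in SCPs and 8.24, 6.53 and 6.87 FPKM in RSCs (log2 fold change 2.41, SE 0.21, limma adjusted p 3.7e-04). From named transcripts Adamts14, like Adamts2, reached the test only through RSCs, so the filter fixed the direction of both. Adamts16 was higher in RSCs with a log2 fold change of 3.41, and the ADAMTS-like gene Adamtsl1 with one of 2.77. Adamts17 was at 14.9, 21.2 and 18.6 FPKM in SCPs and 0.35, 0.13 and 0.37 FPKM in RSCs (log2 fold change −3.90, SE 0.21, limma adjusted p 6.7e-05), and Adamts19, its closest relative, had a log2 fold change of −2.28. Adam23, an ADAM without protease activity, had a log2 fold change of −2.19. Of the proteoglycans that these proteases cut, Vcan (versican) was at 110, 119 and 124 FPKM in SCPs and 20.6, 25.8 and 23.4 FPKM in RSCs (log2 fold change −2.30, SE 0.11, limma adjusted p 4.7e-05), while Spock2 was higher in RSCs (log2 fold change 2.39).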

How the data were processed

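RNA of 3 SCP and 3 RSC preparations was sequenced by the authors as stranded, paired-end mRNA libraries and mapped to the rn6 rat genome. Submitters' processing notes name FastQC 0.11.2, TopHat2 2.1.0 and Cufflinks 2.2.1. For each sample the authors deposited transcript FPKM, scaled to transcript length and mapped fragments, with its confidence bounds, and read coverage, a signal used here for relative depth (0.88 to 1.00 of the deepest sample in SCPs, 0.79 to 0.84 in RSCs). The tables hold no counts, so absolute depth is unknown and the spread of 3 preparations sets the precision. Per table, 77 transcripts whose names had turned into dates were dropped.

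FPKM was summed by symbol and compared with limma 3.58.1 (R 4.3.3, variance trend, two-sided) on log2(FPKM + 1), RSC minus SCP, for 13003 genes averaging at least 1 FPKM. Calls used the study's thresholds, an unadjusted p under 0.01 and, for a 4-fold difference, a log2 fold change beyond 2, with Benjamini-Hochberg adjusted p over all tested genes beside them. In the second counting, each unnamed transcript was added to the most overlapped gene of its Cufflinks locus, so that a transcript spanning several genes counts for 1 of them. Gene positions count from 1. Tables were handled with Python 3.11.15 and pandas 2.3.3, and the fit was tested on simulated data. All 38 genes are named. Other pathway genes are named if over 4-fold different from named transcripts. Reck, Lrp1, Plat, Bsg, Adamts15, Adamts20, Adamtsl4, Adamtsl5, Comp and Adam11 were named after their values were seen. The genes and lists were chosen with earlier results of these data known. The alternatives were a smaller pseudocount, other filters, quantile and median-of-ratios scaling, no variance trend, a replicate block, an adjusted p threshold, the highest transcript per symbol, assembled transcripts, values of 0 left out, and each sample left out.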

Additional observations from a re-analysis of the deposited data

How the results depend on the processing

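Precision is limited by 3 preparations per group and by genes near 1 FPKM, and sequencing depth is not known. Against 13 genes higher in RSCs and 3 higher in SCPs, leaving out a sample gave 8 to 13 and 3 to 4, with 8 without RSC replicate 1. The genes over 4-fold higher in RSCs (7) were 5 to 8 and those over 4-fold higher in SCPs (2) were 1 to 3 when a sample was left out, with 1 without RSC replicate 3. Genes higher in SCPs were 6 with assembled transcripts. Values of 0 were also left out where a sample of the same group was at 5 FPKM or more. That left 1 SCP sample for Adam8 and 1 RSC sample for Adam9 and Adam12, so no count is given for it. Genes over 4-fold higher in SCPs were 4 with a pseudocount of 0.1, 4 with assembled transcripts, 1 under median-of-ratios scaling and 1 with the highest transcript per symbol. Other pathway genes higher in SCPs were 11 without a filter, against 6.

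Among genes that were not called, the sign of the log2 fold change turned for Mmp11 (0.036), Adam19 (0.18) and Adamts9 (0.029) under median-of-ratios scaling and for Mmp24 (−0.10) and Timp3 (−0.013) under quantile normalization. With assembled transcripts it turned for Mmp14 (0.17), Mmp28 (−0.55), Adam9 (1.06) and Adamts5 (−0.0080), which count reads that the named transcripts miss. With values of 0 left out it turned for Mmp28 (−0.40), Adam8 (−1.59), Adam9 (0.26) and Adamts5 (−0.50). There Adam8 rested on 1 SCP sample and Adam9 on 1 RSC sample. Leaving out a sample gave ranges of −0.14 to 0.23 for Mmp24, −0.40 to 1.06 for Mmp28, −0.17 to 0.39 for Adam8, −1.86 to 0.017 for Adam9, −0.14 to 0.051 for Adam19, −0.50 to 0.99 for Adamts5 and −0.48 to 0.0083 for Adamts9. No called gene changed sign under these settings. The calls of Mmp9, Timp1, Adam15 and Adamts1 were lost under at least 1 of them, and the cause was not tested. Mmp12 left the test without RSC replicate 1 or RSC replicate 3. With a mean of at least 5 FPKM required, Mmp9, Mmp12 and Adamts8 were not tested, and 10 genes were higher in RSCs.

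The replicate numbers do not pair the samples (correlations of deviations 0.04, −0.01 and 0.03 for numbers 1 to 3). With the number as a block, 11 genes were higher in RSCs and 3 in SCPs, Mmp9 (p 0.014) and Adamts1 (p 0.020) losing their calls.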
